A study of Mus musculus with 2 samples.

Results

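The genes described here encode the bone morphogenetic protein (BMP), activin and transforming growth factor beta (TGF-beta) signalling system. They were taken from the deposited expression table by symbol, from a fixed pattern that covers ligands, receptors, Smads, secreted inhibitors and the Id genes. The pattern found 65 of 22740 genes. RNA had been sequenced from the whole uterus of 2 wild-type C57BL/6 mice on day 4 of pregnancy, 1 library per animal. The libraries are called uterus 1 and uterus 2. They form 1 group with no treatment or second genotype, so the data give the level of each gene and the difference between 2 animals. A whole uterus mixes epithelium, stroma, muscle, vessels and leukocytes, and no cell type was isolated.

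Ligands of this family bind a complex of type I and type II receptor kinases on the cell surface. The activated type I receptor phosphorylates receptor-activated Smad proteins, which join Smad4 and enter the nucleus. Smad1, Smad5 and Smad9 serve mainly BMP-type receptors, and Smad2 and Smad3 mainly activin and TGF-beta receptors. Secreted antagonists trap ligands, inhibitory Smads damp the signal, and the Id genes are direct targets of BMP signalling. In the mouse uterus, BMP2 is known for its role in the change of stroma into decidua after the embryo attaches.

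Values are the authors' RPKM, reads scaled to transcript length and library size, so that levels of different genes can be compared per length. The reads behind them were recovered and summed to 3750847 in uterus 1 and 4168581 in uterus 2. All 5 stroma markers, all 5 smooth muscle markers, all 5 epithelial markers and all 4 endothelial markers reached 1 RPKM in both uteri. Of the 5 oocyte markers, none did. The gene Rpl26, which cells in general use, is listed at 0 in both uteri, so a listed 0 is not read as absence.

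Of the 65 members, 42 (64.6%) were detected, meaning at least 1 RPKM in both uteri, where 58.4% of all genes were. Their median level was 4.71 RPKM in uterus 1 and 3.37 RPKM in uterus 2, beside 3.28 and 3.23 RPKM for all genes. Detection differed between roles. All 4 type II receptors, the 3 TGF-beta ligands and the 4 Id genes were detected, as were 6 of 7 type I receptors and 7 of 8 Smads. Of 30 ligand chains only 12 were detected. The plot of levels by role shows this split.

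**Figure D1:**
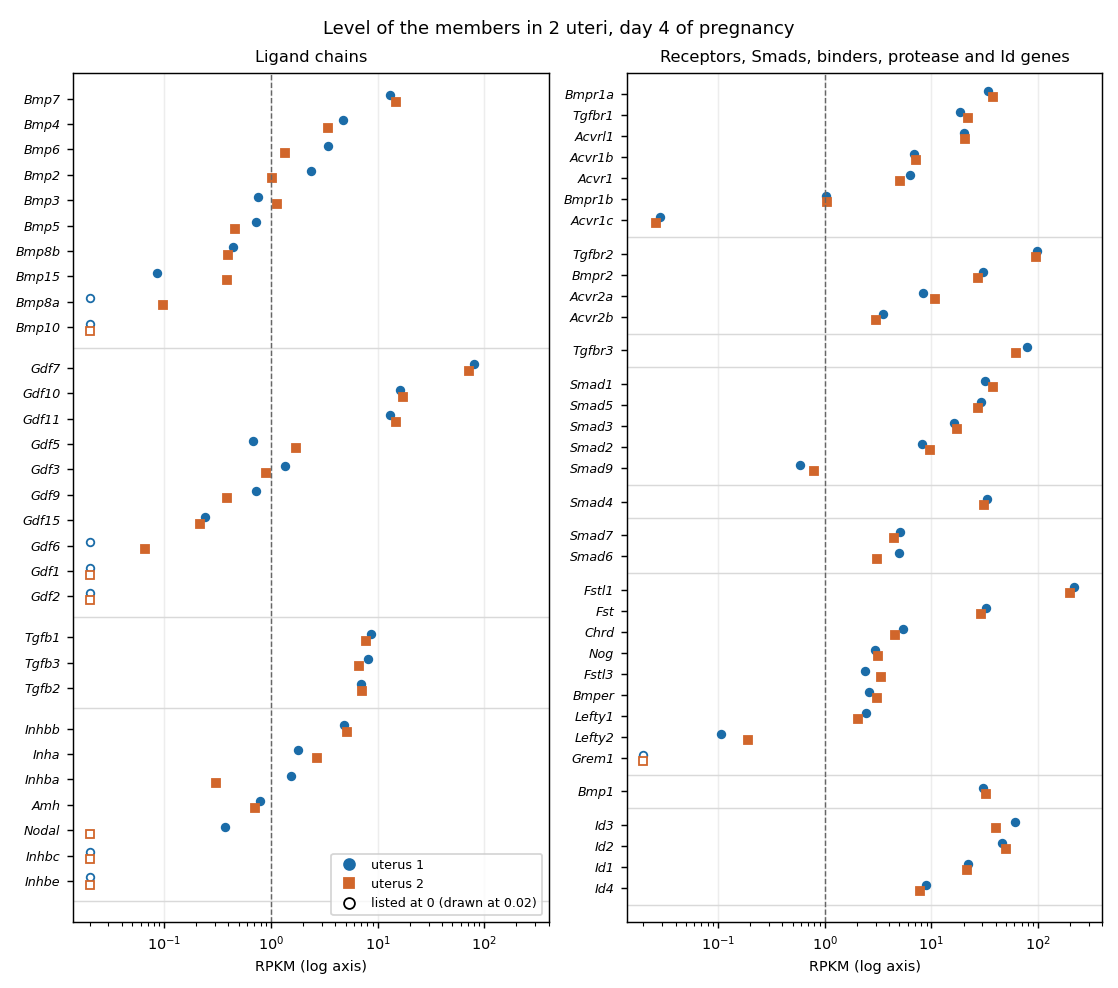
RPKM of the members (log axis), with 1 row per gene, circles for uterus 1 and squares for uterus 2. Horizontal lines separate the roles, the dashed line marks 1 RPKM, and open symbols at the left edge stand for values listed at 0. Fstl1, Tgfbr2, Gdf7 and Tgfbr3 lie farthest to the right, and 18 of 30 ligand chains have at least 1 value left of the line.

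Among the ligands, Gdf7 stood highest. Gdf7 (NM_013527, NCBIM37 chromosome 12, 8304724 to 8308760) encodes growth differentiation factor 7, also called BMP12, a BMP-type ligand. In uterus 1 it lay at 79.6 RPKM (427 reads), and in uterus 2 at 72.4 RPKM (431 reads). This gene alone held 46.7% and 44.8% of the summed RPKM of all 30 ligand chains in the respective uterus. Its level placed it at percentile 97.0 of all genes, and its fold of uterus 2 over uterus 1 was 0.908 (95% counting interval 0.793 to 1.04).

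The next ligands were several times lower. Gdf10, also known as BMP3b, lay at 16.3 and 17.2 RPKM on 157 and 184 reads. Gdf11, a close relative of myostatin that signals through activin receptors, lay at 12.96 and 14.79 RPKM. Bmp7 lay at 13.1 and 14.8 RPKM on 99 and 124 reads, and its range overlapped that of Gdf11. These 3 genes and Gdf7 were the only ligand chains with a mean of at least 10 RPKM.

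Bmp4, which acts in mesenchyme of many organs, lay at 4.71 and 3.42 RPKM on 36 and 29 reads. Bmp2 (NM_007553, chromosome 2, 133378935 to 133388621) lay at 2.39 and 1.03 RPKM on 23 and 11 reads. Bmp6 lay at 3.46 and 1.36 RPKM on 32 and 14 reads. Both Bmp2 and Bmp6 had the lower value in uterus 2, and their levels in uterus 2 rest on fewer than 20 reads each. Summed over Bmp2, Bmp4 and Bmp7, the RPKM was 20.2 in uterus 1 and 19.3 in uterus 2, most of it from Bmp7.

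The other BMP ligands lay near or under 1 RPKM. Bmp3 was at 0.754 and 1.13 RPKM, Bmp5 at 0.722 and 0.465 RPKM, and Bmp8b at 0.4436 and 0.3996 RPKM. Of the exon bases of Bmp5, 46.7% overlap Gm16662 on the opposite strand, so its reads are uncertain. Bmp15, an oocyte growth factor, held 1 and 5 reads, and Gdf9, its oocyte partner, held 5 and 3. Of the 5 oocyte markers, Zp1, Zp2 and Zp3 were listed at 0, and the summed level of the list was 0.581 RPKM in uterus 1 and 0.456 RPKM in uterus 2. Bmp8a held 0 reads and 1 read, and Bmp10 was listed at 0 in both uteri. Bmp8a and Bmp8b share sequence: 8.74% of the 50-base words of the Bmp8a transcripts also occur in another gene, chiefly Bmp8b.

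In the GDF group, Gdf5 lay at 0.676 and 1.73 RPKM on 6 and 17 reads, and Gdf3 at 1.36 and 0.891 RPKM on 11 and 8 reads. Of the exon bases of Gdf5, 40.3% overlap Gm15557 on the opposite strand. Use of strand in counting is not given in the sources used here, so reads of the 2 genes cannot be told apart. Gdf15 held 1 read in each uterus, Gdf6 held 0 reads and 1 read, and Gdf2 was listed at 0. Gdf1 was also listed at 0, and all of its exon bases lie within the gene Lass1 on the same strand, so reads from there cannot be assigned to either.

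The 3 TGF-beta ligands lay at nearly equal levels. Tgfb1, the main isoform of immune cells and platelets, was at 8.59 and 7.85 RPKM on 69 and 70 reads. Tgfb2 was at 6.95 and 7.16 RPKM, and Tgfb3 at 8.09 and 6.73 RPKM. The ranges of Tgfb2 and Tgfb3 overlapped between the uteri, as did those of Tgfb1 and Tgfb3, so these neighbours were not separated beyond their spread.

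Activins are dimers of inhibin beta chains, and inhibins pair a beta chain with the alpha chain. Inhbb, the beta chain of activin B, was the highest at 4.84 and 5.19 RPKM on 79 and 94 reads. Inha, the alpha chain, lay at 1.78 and 2.73 RPKM on 10 and 17 reads. Inhba, the beta chain of activin A, lay at 1.54 and 0.307 RPKM on 9 and 2 reads. The Inhba fold was 0.200 with a counting interval of 0.0210 to 0.966, and its adjusted p was 0.258 (two-sided exact binomial test, Benjamini-Hochberg). That difference did not pass the test at this depth.

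Amh, the anti-Müllerian hormone of granulosa and Sertoli cells, held 5 reads in each uterus. Of the 5 granulosa and luteal markers, Fshr, Cyp19a1 and Lhcgr were listed at 0, and the list summed to 3.37 and 4.00 RPKM, most of it from Star. The part of ovarian RNA in the values of Inha and Amh was not tested. Nodal, a ligand best known from the early embryo, held 3 reads in uterus 1 and was listed at 0 in uterus 2. Inhbc and Inhbe, beta chains known from liver, were listed at 0 in both.

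Type II receptors bind ligand and phosphorylate the type I partner. Tgfbr2 (NM_029575, chromosome 9, 115996813 to 116084481), the TGF-beta type II receptor, lay at 98.5 and 96.2 RPKM on 1808 and 1961 reads. It held 69.8% and 70.0% of the summed RPKM of the 4 type II receptors. Bmpr2, the BMP type II receptor, lay at 30.6 and 27.5 RPKM on 412 and 411 reads. The activin receptors were lower, Acvr2a at 8.40 and 10.7 RPKM and Acvr2b at 3.53 and 3.04 RPKM. No range overlapped between neighbours in this order. Tgfbr3 (betaglycan), a co-receptor that presents TGF-beta and inhibin, lay at 78.5 and 61.5 RPKM.

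Type I receptors carry the signal to the Smads. Bmpr1a (NM_009758, chromosome 14, 35224254 to 35315732), the BMP receptor also called ALK3, was highest at 34.1 and 37.4 RPKM, and held 39.2% and 40.1% of the type I sum. Tgfbr1, or ALK5, lay at 18.6 and 22.1 RPKM on 404 and 532 reads. Acvrl1, or ALK1, which is known from endothelium, lay at 20.1 and 20.5 RPKM, inside the range of Tgfbr1. Acvr1b (ALK4), the activin receptor, was at 6.84 and 7.17 RPKM. Acvr1 (ALK2), a BMP-type receptor, was at 6.33 and 5.06 RPKM.

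The 2 remaining type I receptors were low. Bmpr1b (ALK6) lay at 1.03 and 1.06 RPKM on 21 and 24 reads, just above the detection limit and far under Bmpr1a. Acvr1c (ALK7) held 1 read in each uterus, at 0.0288 and 0.0260 RPKM.

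Among the receptor-activated Smads, the BMP-type pair Smad1 and Smad5 was highest. Smad1 lay at 31.5 and 37.4 RPKM on 368 and 485 reads, and Smad5 at 29.1 and 27.5 RPKM on 801 and 839 reads. Smad9, the third BMP-type Smad, lay at 0.583 and 0.788 RPKM on 12 and 18 reads. Smad3 was at 16.2 and 17.3 RPKM and Smad2 at 8.13 and 9.71 RPKM. The sum of Smad1, Smad5 and Smad9 was 61.2 RPKM in uterus 1 and 65.7 RPKM in uterus 2. The sum of Smad2 and Smad3 was 24.4 and 27.0 RPKM, so the ratio of the sums was 2.51 and 2.43.

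Smad4, the partner of all receptor-activated Smads, lay at 33.2 and 31.1 RPKM on 425 and 442 reads. The inhibitory Smads were lower. Smad7 lay at 5.05 and 4.44 RPKM on 86 and 84 reads. Smad6 lay at 5.004 and 3.084 RPKM on 57 and 39 reads, and its lower value was in uterus 2. Their ranges overlapped.

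Of the 10 secreted antagonists and binders, Fstl1 was the highest member of the whole set. Fstl1 (NM_008047, chromosome 16, 37777141 to 37836602), a follistatin-like glycoprotein of mesenchyme, lay at 216.7 and 199.1 RPKM on 2998 and 3058 reads. It held 81.5% and 81.4% of the summed RPKM of this role and stood at percentile 99.2 of all genes. Follistatin itself, Fst (NM_008046, chromosome 13, 115242470 to 115248938), which neutralises activins, lay at 32.6 and 28.9 RPKM on 292 and 287 reads.

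The classical BMP antagonists were low. Chrd (chordin) lay at 5.42 and 4.59 RPKM on 68 and 64 reads, and Nog (noggin) at 2.99 and 3.18 RPKM on 22 and 26 reads. Bmper, which binds BMPs and chordin, lay at 2.61 and 3.10 RPKM. Fstl3 lay at 2.40 and 3.37 RPKM, and 47.3% of its exon bases overlap Prss57 on the opposite strand, so its reads are uncertain. The ranges of Nog, Bmper and Fstl3 overlapped. Grem1 (NM_011824, chromosome 2) was listed at 0 in both uteri.

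Lefty1, an inhibitor of nodal signalling, lay at 2.44 and 2.05 RPKM on 15 and 14 reads, whereas Lefty2 held 1 and 2 reads. Of the 50-base words of the Lefty1 transcripts, 17.9% occur in another gene, chiefly Lefty2, so the split between them is uncertain. Bmp1 is named after the BMPs but encodes a procollagen protease, which also cleaves chordin. It lay at 30.7 and 32.7 RPKM on 525 and 619 reads.

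The Id genes encode inhibitors of basic helix-loop-helix transcription factors. Id3 (NM_008321, chromosome 4, 135699737 to 135701307) lay at 61.3 RPKM (224 reads) in uterus 1 and at 40.7 RPKM (165 reads) in uterus 2. Id2 lay at 46.1 and 50.1 RPKM on 225 and 271 reads, Id1 at 22.0 and 21.4 RPKM on 77 and 83 reads, and Id4 at 8.80 and 7.78 RPKM on 56 and 55 reads. The order of Id2 and Id3 differed between the uteri. Id1 and Id4 kept a clear distance from them and from each other. Id2 and Id3 together held 77.7% and 75.7% of the Id sum.

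The 250 bases before the start site of each Id gene are shown because these genes are the readout of the pathway in this set, and 1 of them differed between the uteri. They were read from NCBIM37, in which the windows lie at chr2:152561760-152562009 (plus strand) for Id1, chr12:25780958-25781207 (minus strand) for Id2, chr4:135699487-135699736 (plus strand) for Id3 and chr13:48356546-48356795 (plus strand) for Id4. Each is written 5′ to 3′ in the direction of the gene. Capitals mark the motifs GGCGCC, a GC-rich element bound by BMP-type Smads, and CAGAC, which holds the short Smad box. Both strands were searched, so CAGAC also appears as GTCTG.
Id1: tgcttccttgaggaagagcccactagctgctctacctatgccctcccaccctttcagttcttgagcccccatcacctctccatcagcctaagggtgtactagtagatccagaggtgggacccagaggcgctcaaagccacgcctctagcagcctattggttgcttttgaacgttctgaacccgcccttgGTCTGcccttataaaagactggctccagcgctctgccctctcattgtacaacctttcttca
Id2: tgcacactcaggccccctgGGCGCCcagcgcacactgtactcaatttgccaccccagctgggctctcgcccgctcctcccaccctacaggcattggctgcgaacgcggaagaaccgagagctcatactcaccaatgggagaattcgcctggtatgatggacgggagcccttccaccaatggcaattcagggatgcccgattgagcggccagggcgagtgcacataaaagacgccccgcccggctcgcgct
Id3: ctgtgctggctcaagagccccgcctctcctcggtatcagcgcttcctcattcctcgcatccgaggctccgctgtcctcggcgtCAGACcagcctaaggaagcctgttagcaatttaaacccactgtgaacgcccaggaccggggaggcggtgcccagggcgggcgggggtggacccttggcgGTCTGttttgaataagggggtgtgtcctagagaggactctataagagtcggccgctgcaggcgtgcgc
Id4: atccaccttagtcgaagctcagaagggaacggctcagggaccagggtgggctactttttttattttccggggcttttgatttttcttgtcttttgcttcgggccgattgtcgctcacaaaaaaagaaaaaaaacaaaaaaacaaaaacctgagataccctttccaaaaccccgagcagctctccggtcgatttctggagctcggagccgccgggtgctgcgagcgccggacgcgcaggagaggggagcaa

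The Id2 window held 1 GGCGCC, starting 231 bases before the start site. The Id1 window held 1 CAGAC motif, at 61 bases, and the Id3 window held 2, at 167 and 68 bases. The Id4 window held neither motif, and no motifs overlapped in these windows. Over 22663 genes, 12.6% of such windows held GGCGCC and 40.6% held CAGAC. Among the windows of the 65 members the shares were 13.8% and 43.1%. Sequence farther from the start site was not searched, so a window without a motif does not show that the gene lacks it. The matches describe letters only, since binding was not measured.

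The uteri were then compared member by member. The log2 ratio of uterus 2 over uterus 1, after adding 0.1 RPKM to each value, was taken for genes whose mean reached 1 RPKM, which understates the change of low genes. The 44 members above that mean had a median ratio of -0.04, beside 0.0007 for all 13647 such genes. Uterus 2 had the higher value for 21 of them and uterus 1 for 23. Members at least 2-fold apart numbered 3, where 2.60% of all such genes were. They were Bmp2 and Bmp6, higher in uterus 1, the direction of 1.42% of those genes, and Gdf5, higher in uterus 2, the direction of 1.18%.

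None of these 3 passed a test on reads. The two-sided exact binomial test compared the recovered reads of the 2 libraries for each gene with at least 6 reads in sum. It covers counting error only and compares these libraries, not conditions. Benjamini-Hochberg adjustment ran over all 15097 genes tested. Bmp6 had a fold of 0.394 (95% counting interval 0.194 to 0.759) and an adjusted p of 0.0595. Bmp2 had a fold of 0.430 (0.189 to 0.919) and an adjusted p of 0.226. Gdf5 had a fold of 2.55 (0.959 to 7.90) and an adjusted p of 0.352. The intervals of Bmp6 and Bmp2 excluded 1 before adjustment, and none of the 3 differences passed after it. The deposited values also allow whole multiples of the reads used for Bmp2.

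**Figure D2:**
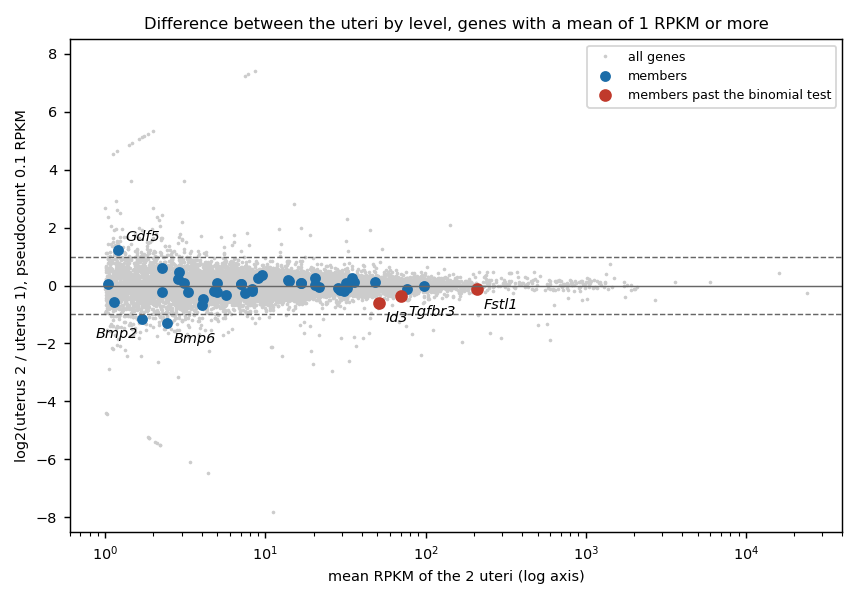
Log2 ratio of uterus 2 over uterus 1 against the mean RPKM (log axis) for the 13647 genes whose mean reached 1 RPKM, with 1 point per gene. Members are blue, the 3 members past the exact binomial test are red, and dashed lines mark 2-fold. Gdf5, Bmp2 and Bmp6 lie outside the dashed lines at low levels, and Id3, Tgfbr3 and Fstl1 lie inside them at higher levels.

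Of the 53 members tested, 3 passed at an adjusted p under 0.05, where 4.51% of all genes tested did. All 3 were lower in uterus 2, and 2.45% of all genes tested were called in that direction. Tgfbr3 (NM_011578, chromosome 5, 107535589 to 107718614) fell from 78.5 to 61.5 RPKM on 1821 and 1585 reads. Its fold was 0.783 (0.732 to 0.838), with an adjusted p of 2.8e-10 in the exact binomial test. Id3 fell from 61.3 to 40.7 RPKM, with a fold of 0.663 (0.539 to 0.814) and an adjusted p of 0.0029 in the same exact test. Fstl1 fell from 216.7 to 199.1 RPKM, with a fold of 0.918 (0.872 to 0.965) and an adjusted p of 0.0242.

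In whole tissue, fewer cells of a type and less RNA per cell cannot be told apart. The markers of the main cell types were therefore summed beside these genes. The 5 stroma markers summed to 3784 RPKM in uterus 1 and 3569 RPKM in uterus 2, and the 5 smooth muscle markers to 1741 and 1737 RPKM. The 4 endothelial markers summed to 135 and 131 RPKM, the 5 epithelial markers to 244 and 279 RPKM, and the 4 leukocyte markers found to 70.1 and 66.6 RPKM. No marker of these 5 lists was listed at 0. Within these sums, single markers moved in both directions. Higher in uterus 2 were 4 of 5 stroma, 4 of 5 smooth muscle, 3 of 5 epithelial, 3 of 4 endothelial and 1 of 4 leukocyte markers. The only stroma marker lower in uterus 2 was Col1a1, at 1184 and 851 RPKM. By the same exact test, Col1a1 was lower in uterus 2 with a fold of 0.717 (adjusted p of 5.8e-227) and Vim higher with 1.17 (2.0e-08), and the other 3 stroma markers did not pass. Acta2 was lower with 0.906 (2.4e-06) and Myh11 higher with 1.11 (1.3e-10) in the smooth muscle list. Krt18 was higher with 1.34 (7.7e-04), and Kdr lower with 0.723 (1.7e-04). Pecam1 had 643 and 716 reads and an adjusted p of 1.000. The part of cell makeup in the values of Tgfbr3, Id3 and Fstl1 was not tested.

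The reads limit the fold to different degrees. Of 45 members with at least 20 reads in sum, 34 had a counting interval that lay wholly within 2-fold in either direction, the 3 called members among them, and 35 had an interval that included 1. Among the 20 members with at least 100 reads in both uteri, the median size of the log2 ratio was 0.13, beside 0.12 for the 7219 genes of that depth. The binomial test called 3 of these 20 (15%), and 7.56% of all genes of that depth. Among the members whose interval included 1 were Bmpr1a at a fold of 1.10 (0.920 to 1.31), Bmpr2 at 0.898 (0.781 to 1.03), Smad5 at 0.942 (0.854 to 1.04) and Smad4 at 0.936 (0.817 to 1.07).

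Among these 45 members, the interval excluded 1 for the 3 called members, for Bmp2 and Bmp6, and for 5 others. It also excluded 1 for Inhba, which had fewer than 20 reads in sum. Smad1 had a fold of 1.19 (1.03 to 1.36) with an adjusted p of 0.161, Tgfbr1 1.19 (1.04 to 1.35) with 0.139, and Acvr2a 1.27 (1.05 to 1.55) with 0.159, all by the exact binomial test. Smad2 had a fold of 1.19 (1.02 to 1.40) with an adjusted p of 0.225, and Smad6 one of 0.616 (0.399 to 0.942) with 0.196. None of these 5 differences passed after adjustment.

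**Figure D3:**
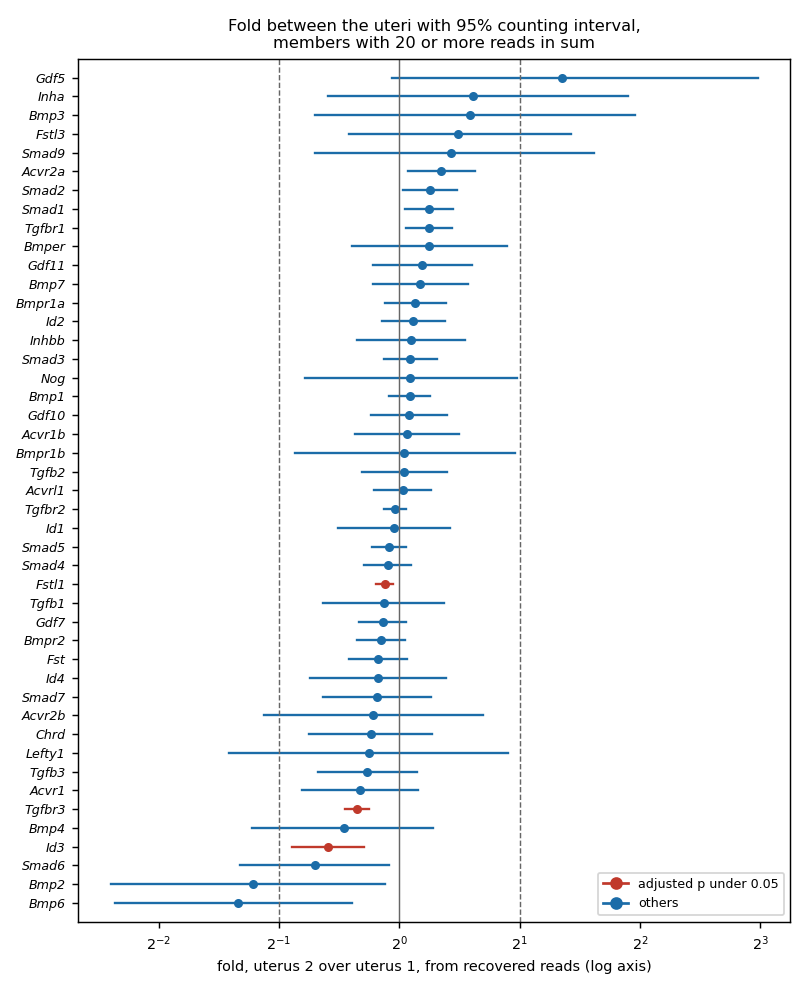
Fold of uterus 2 over uterus 1 from recovered reads (log axis) with its 95% counting interval, for the 45 members with at least 20 reads in sum. Red marks an adjusted p under 0.05, dashed lines mark 2-fold, and genes are sorted by fold. Intervals are widest for Gdf5, Bmp3, Inha, Smad9 and Lefty1, and narrow for Fstl1, Tgfbr2 and Tgfbr3.

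A list of 51 further genes of the pathway was examined for context, and 41 of them were detected. Nbl1, a secreted BMP antagonist of the DAN family, lay at 111.9 and 112.5 RPKM, and the BMP binder Twsg1 at 37.6 and 36.1 RPKM. These 2 binders lay above Chrd and Nog in both uteri, as did Chrdl2 at 8.41 and 9.58 RPKM. Other antagonists of the list lay below Chrd and Nog. Chrdl1 was at 1.35 and 1.70 RPKM, Sostdc1 at 0.596 and 0.134 RPKM, and Dand5 at 2.79 and 2.52 RPKM on 3 reads each. Ltbp4, which anchors latent TGF-beta in the matrix, lay at 116.7 and 100.4 RPKM, and the type I receptor binder Fkbp1a at 89.8 and 69.7 RPKM. The pseudoreceptor Bambi lay at 7.56 and 6.62 RPKM. Cer1, Sost, Mstn and Hfe2 were listed at 0.

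Genes known to respond to the pathway lay at very different levels. Ctgf, a TGF-beta response gene, was at 52.8 and 55.1 RPKM and Tgfbi at 31.1 and 28.7 RPKM. Msx1, a homeobox gene of BMP response that acts in implantation, lay at 18.6 and 17.9 RPKM, and Hand2 at 33.3 and 39.5 RPKM. Wnt4, which acts with BMP2 in the decidua, lay at 1.501 and 1.844 RPKM, and Msx2 at 0.603 and 0.869 RPKM.

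Of the 45 further genes tested, 9 passed the same exact binomial test, where 4.51% of all genes tested did. Among the 31 with at least 100 reads in both uteri the share was 29.0%, and it was 7.56% among all genes of that depth. Higher in uterus 1 were 8 of the 9: Eng, Ltbp1, Ltbp3, Ltbp4, Thbs1, Itgav, Crim1 and Fkbp1a. Eng (endoglin), a TGF-beta co-receptor of endothelium, fell from 38.3 to 25.7 RPKM, a fold of 0.670 with an adjusted p of 2.8e-07. Latent TGF-beta binding proteins Ltbp1, Ltbp3 and Ltbp4 had folds of 0.811, 0.804 and 0.859. Decorin, Dcn, a matrix proteoglycan that binds TGF-beta, rose from 456 to 578 RPKM, a fold of 1.27 with an adjusted p of 7.6e-25.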

How the data were processed

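Poly-A purified RNA of whole uterus was sequenced from 2 mice, 1 library each. The deposited values are RPKM made by the authors, per the labels' design text; the submitters' processing notes name TopHat, edgeR and build mm9 (NCBIM37), and the counting program, gene models and strand setting are not given in the sources used here. The 22740 genes have the same values in both deposited tables, and 626 rows found only in the annotated table were not used here.

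Reads were recovered from the RPKM. Of single-exon microRNA, small nucleolar RNA and histone genes above 0, 98.7% (uterus 1) and 99.0% (uterus 2) held whole multiples of 1 read, within a relative tolerance of 1e-06. Scaling totals were 3834174.4 and 4256101.0. Each gene's 2 values were written as ratios of whole numbers over 1 shared length, within a relative tolerance of 3e-12, which succeeded for 17424 of 17426 genes above 0. A common factor was set where it brought the length within 0.05 (natural log) of the nearest GENCODE M1 transcript. Otherwise the smallest reads were kept, as for 12 members (Acvr1, Bmp1, Bmp2, Bmp5, Bmp7, Bmpr1a, Gdf11, Gdf15, Id3, Smad2, Smad5 and Tgfbr2), whose true reads could be a multiple. Recovery and test were also run on simulated data, but no outcome is given here, so nothing is concluded from those runs.

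Intervals are exact binomial at 95% and cover only the error of counting, with no spread between animals. Reads without molecular identifiers can be copies of 1 molecule, and the intervals would then be too narrow. P-values measure the counting spread between 2 libraries and no spread between replicates. Deposited starts count from 0 and are given from 1. Members were taken by the symbol pattern. All members could be named, though 1 member and 1 further pathway gene are not reported here, and other genes came from fixed lists. Members and lists were chosen with earlier results of these data known. Leukocyte marker Adgre1 (listed as Emr1) and decidua marker Dtprp were not matched by symbol. The decidua list summed to 9.46 and 7.53 RPKM, the oviduct list to 5.78 and 9.31, the blastocyst list to 1.504 and 0.5386, and the liver list to 4.27 and 5.50. Alternatives were pseudocounts, filters, scalings, thresholds, read choices and single libraries. Python 3.11.15, scipy 1.17.1 and pandas 2.3.3 were used.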

Additional observations from a re-analysis of the deposited data

How the results depend on the processing

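The count of members at least 2-fold apart moved with the treatment of low values, as did that of all genes, which was 355. It was 0 of 44 with a pseudocount of 1 RPKM, which shrinks low genes by construction (153 of all genes), and 0 at a mean of at least 5 RPKM (73), which leaves out Bmp2, Bmp6 and Gdf5. It was 6 with no filter (1846), which adds Bmp15, Inhba and Nodal on a few reads, and the same 3 genes were found with a pseudocount of 0.01 and after centring on the median of all genes. Rescaling each library to a common sum gave 4 (736), adding Inhba. The exact binomial test called the same 3 members, Fstl1, Id3 and Tgfbr3, with the smallest possible reads, with scaling to the median gene and with a minimum of 20 reads. Detected members numbered 47, 38 and 28 at thresholds of 0.5, 2 and 5 RPKM, where 62.4%, 53.2% and 42.9% of all genes were detected, and 44 with either library alone. The median log2 ratio of members lay between -0.0894 and -0.0022 over 6 alternatives. Each library alone is necessarily within 1 SD of a mean over both, so that alternative says nothing about a gene's level. Ratios and the binomial test need both libraries, so neither could be left out there. No paired analysis was possible because the study holds a single group. Of the 65 members, 28 had fewer than 20 reads in at least 1 uterus, and 21 of these were ligand chains.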

Other observations

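Bmpr1a and Smad1 had the same deposited value in uterus 2, 37.4233 RPKM, although they are different genes with different values in uterus 1. The recovered values in uterus 2 were 291 reads over 1827 bases for Bmpr1a and 485 reads over 3045 bases for Smad1. Different reads and lengths thus gave the same ratio of reads to length. The pair was noticed after the values were seen.

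The start-site windows of detected and other members differed in base composition, as did those of genes in general. The 42 detected members had a median of 68.0% G and C and 22.0 CG pairs in 250 bases. The 23 other members had 53.2% and 4.00, all 22663 genes had 55.6% and 10, and the 13278 detected genes among them had 60% and 16. These values describe the windows and were not tested.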
